A study of Mus musculus with 12 samples.

Results

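The mitochondrial carriers of the Slc25 family were described in the liver of insulin-deficient mice given leptin in a brain ventricle (icv) or, as controls, phosphate-buffered saline (PBS) by the same route. Members were all genes whose array symbol is Slc25a followed by a number, with the uncoupling proteins, and without Slc25a1, Slc25a13, Slc25a15 and Slc25a20, which the choice of members set aside. The array named 44 such genes with 70 probes, of 19057 genes and 45281 probes in all. Ucp2, which the choice also names, is not analysed here. Both groups were insulin-deficient mice of mixed strain background, so no animal with normal insulin enters the comparison. The sources used here do not give how the deficiency was produced, nor age and sex. Leptin was infused at 25 ng in 0.11 µL per hour, with collection at day 10. For PBS neither a rate nor a day is stated, so whether both groups were collected on the same day is not known. Each group held 6 Illumina Mouse-6 V2 arrays of bulk liver, named here leptin 1 to 6 and PBS 1 to 6, so every mean has n = 6. No label says that each array is a separate mouse. A p-value here therefore reflects only how far these arrays scatter, part of which may be technical.

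Most proteins of this family sit in the inner membrane of the mitochondrion and exchange metabolites between its matrix and the cytosol. In hepatocytes they pass ATP, phosphate, dicarboxylates, amino acids and cofactors, and so connect gluconeogenesis, the urea cycle, heme synthesis and oxidative phosphorylation across that membrane. The uncoupling proteins belong to the same family and let protons or other ions leak back into the matrix.

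Each array detected between 13159 and 14431 probes at a detection p below 0.01, and their number of 12 limits the precision. All 6 hepatocyte markers were detected, with a summed linear intensity of 136987 to 161213 with PBS and 150033 to 165087 with leptin. Among them Alb fell by 0.83 and Serpina1a rose by 0.46 on the log2 scale. Of the detected markers, 3 of 8 for Kupffer cells and macrophages rose (Clec4f, C1qa and Timd4, limma adjusted p under 0.05). So did 4 of 4 for lymphocytes and 2 of 5 for endothelium (Stab2 and Cdh5), and none of these fell. Of all tested genes 8.31% rose. Arrays detecting Cd3e numbered 5 with leptin and 0 with PBS, those for Cd3g 4 and 0, for Cd79b 6 and 1. For Cd3d they numbered 6 and 3. So Cd3e, Cd3g and Cd79b met the filter (at least 3 arrays) only through the leptin arrays, where they were higher, which can favour a rise. Neutrophil, stellate, cholangiocyte and erythroid markers gave no call. Of 2 detected pancreatic acinar markers Amy2a5 fell by 0.48 (limma adjusted p = 0.0193), with sums of 11448 to 15582 with PBS against 7779 to 11639 with leptin. Summed intensities of the macrophage markers were 4747 to 10417 with PBS against 7230 to 18761 with leptin. In the same order they were 108 to 127 against 161 to 408 for lymphocytes and 3856 to 8662 against 5611 to 8690 for endothelium. Cd5l, Ms4a1, Cd8a, Cd4 and Kdr were not detected on any array. These shifts ran beside every difference given here, and their part in it was not tested. In bulk liver, fewer cells of a type and less RNA per cell cannot be told apart.

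Of the 44 carriers, 21 were detected on all 12 arrays, 6 on 3 to 11 arrays, 2 on 1 or 2 arrays and 15 on none. The 27 carriers detected on at least 3 arrays were tested. Passing this filter through 1 group alone can favour a difference, which bears most on carriers detected mainly in 1 group. Signals of the 15 undetected carriers ran from 102.0 to 138.3 over their 22 probes, where the median deposited signal of the whole table was 118.9.

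**Figure D1:**
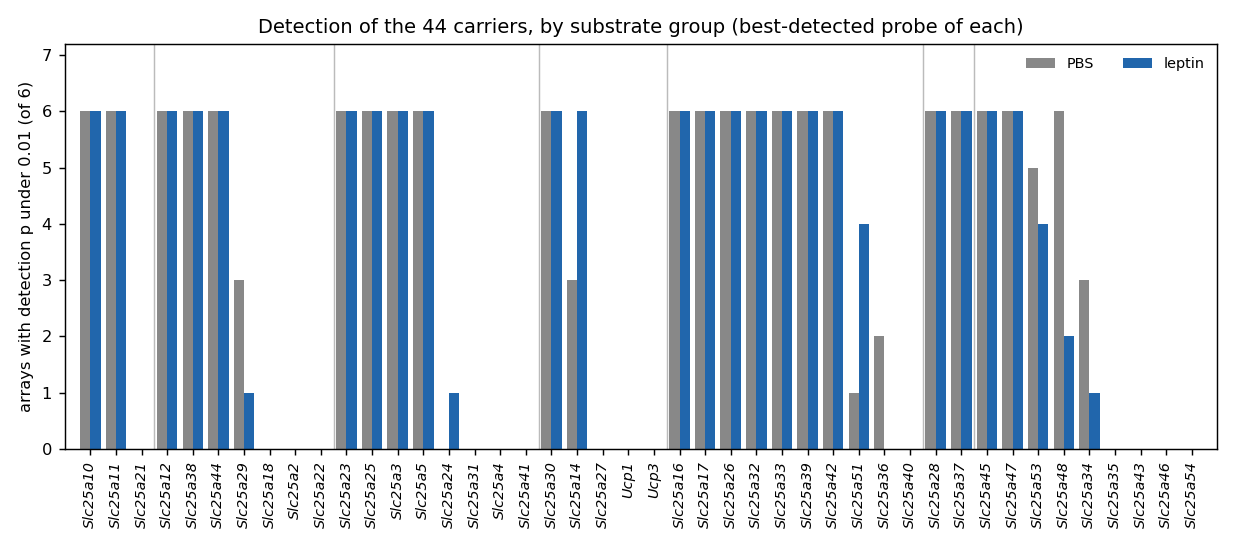
Bars give the number of arrays, of 6 per group, on which the best-detected probe of each of the 44 carriers had a detection p below 0.01, ordered by substrate group with grey lines between groups. Carriers stand mostly at 6 and 6 or at 0 and 0, and Slc25a48 stands at 6 with PBS and 2 with leptin.

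The promoters of the 3 carriers whose arrays separated fully between the groups, Slc25a10, Slc25a12 and Slc25a48, are shown. Beside them stand 2 promoters of carriers that leaned upward and held a searched motif. Slc25a14 also lay above 0 (0.058) and held E-boxes but is not shown. The window of Slc25a5, which fell, held no searched motif and is not shown either. The windows were picked in this way, so they give no comparison of motifs between falls and rises. Each runs from 250 bases before to 50 after a transcript start in RefSeq, build GRCm38.p6, 5′ to 3′ on the gene's strand. Capitals mark matches to the searched motifs.
Slc25a10 (chr11:120491587-120491886, plus strand): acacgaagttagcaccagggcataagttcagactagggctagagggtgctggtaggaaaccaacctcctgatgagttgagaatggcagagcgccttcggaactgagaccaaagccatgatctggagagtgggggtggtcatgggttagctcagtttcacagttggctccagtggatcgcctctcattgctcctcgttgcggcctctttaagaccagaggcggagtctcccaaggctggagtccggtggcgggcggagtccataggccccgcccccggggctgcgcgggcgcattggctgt
Slc25a12 (chr2:71367706-71368005, minus strand): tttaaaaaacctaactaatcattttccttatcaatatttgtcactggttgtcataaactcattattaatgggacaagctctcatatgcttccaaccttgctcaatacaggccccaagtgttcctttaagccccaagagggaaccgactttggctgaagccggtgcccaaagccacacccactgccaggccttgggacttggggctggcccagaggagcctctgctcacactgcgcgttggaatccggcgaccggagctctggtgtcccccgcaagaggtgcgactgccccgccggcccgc
Slc25a48 (chr13:56438105-56438404, plus strand): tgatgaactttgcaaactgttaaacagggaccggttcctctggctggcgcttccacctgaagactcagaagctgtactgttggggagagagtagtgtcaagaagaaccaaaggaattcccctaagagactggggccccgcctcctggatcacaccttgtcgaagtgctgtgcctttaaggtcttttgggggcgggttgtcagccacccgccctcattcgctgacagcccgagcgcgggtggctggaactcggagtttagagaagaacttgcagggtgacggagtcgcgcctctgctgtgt
Slc25a25, 1 of its 3 starts (chr2:32424017-32424316, minus strand): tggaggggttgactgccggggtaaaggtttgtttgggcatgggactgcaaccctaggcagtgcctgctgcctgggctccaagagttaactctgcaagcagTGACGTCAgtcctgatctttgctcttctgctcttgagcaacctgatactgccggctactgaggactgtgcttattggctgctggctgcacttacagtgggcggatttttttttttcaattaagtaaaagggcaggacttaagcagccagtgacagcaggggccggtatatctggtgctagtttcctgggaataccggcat
Slc25a33 (chr4:149774218-149774517, minus strand): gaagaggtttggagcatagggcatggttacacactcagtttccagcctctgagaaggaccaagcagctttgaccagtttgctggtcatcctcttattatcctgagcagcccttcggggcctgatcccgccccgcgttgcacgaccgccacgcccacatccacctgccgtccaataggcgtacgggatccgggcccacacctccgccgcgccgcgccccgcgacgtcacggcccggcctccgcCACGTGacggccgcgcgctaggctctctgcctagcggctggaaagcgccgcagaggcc
The motifs, searched on both strands, were the cAMP response element TGACGTCA, the clock E-box CACGTG, the D-box TTATGTAA, the FoxO motif TGTTTAC, the STAT motif TTCNNNGAA and the nuclear receptor direct repeat DR1. None of these motifs overlapped another in the windows shown. The cAMP response element was found in 1 of the 28 windows of tested carriers, in Slc25a25, and in 1.79% of all 32851 promoters. The E-box was found in 3 windows, of Slc25a33 and Slc25a14, and in 7.15% of all promoters. The D-box (0.938% of all promoters), the FoxO motif (3.65%), the STAT motif (8.30%) and DR1 (0.04%) were in none of the carrier windows. The table held a promoter for 22 of the 27 tested carriers. A match is a description of letters and not of binding.

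The comparison asked which carrier transcripts in the insulin-deficient liver differed when leptin was given in a brain ventricle. Of the 27 tested carriers 4 fell, none rose and 23 did not pass an adjusted p of 0.05 (limma, Benjamini-Hochberg over 8819 genes). The falls were Slc25a48, the dicarboxylate carrier Slc25a10, the aspartate-glutamate carrier Slc25a12 and the adenine nucleotide translocase Slc25a5. That is 14.8% of carriers called, where 16.7% of all tested genes were called, 8.40% downward and 8.31% upward. At an unadjusted limma p under 0.05 were 10 of the 27 carriers, 2 of them higher (Slc25a25 and Slc25a33), beside 32.2% of all genes. By the Cyber-T p-values of the authors' deposited table, adjusted here, 1 carrier rose, Slc25a25, and 3 fell. Those p-values called 994 of the 8819 genes, 529 higher and 465 lower. By limma the share of carriers called in either direction, 14.8%, was near the 16.7% of all genes. The median log2 difference was -0.19 over the carriers and 0.0039 over all tested genes. The carrier median was -0.12 without leptin 4, -0.12 on the deposited values and -0.057 over all 44 carriers with no detection filter. Below 0 lay 19 of the 27 carriers (70.4%) and 49.5% of all tested genes. The groups did not overlap for 3 carriers, all lower with leptin. Over all genes they did not overlap for 7.28%, of which 4.13% of all genes were lower and 3.15% higher with leptin.

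**Figure D2:**
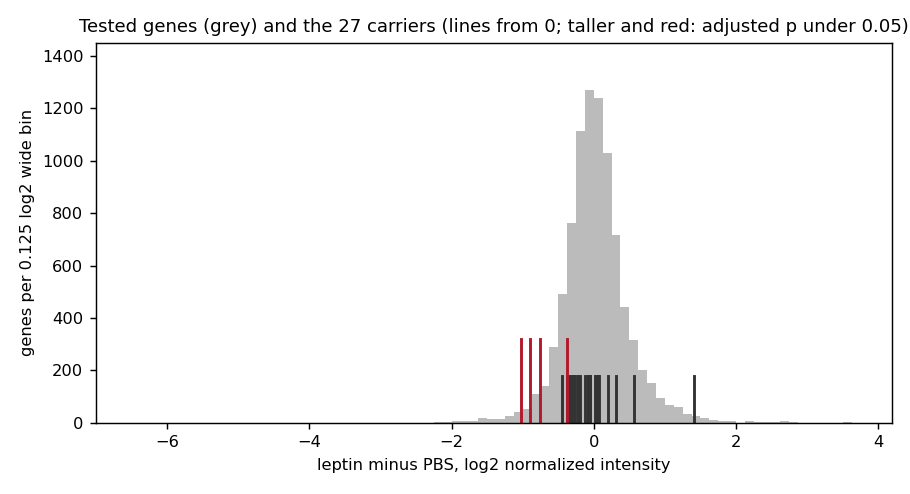
The grey histogram counts all 8819 tested genes by their log2 difference, leptin minus PBS, and vertical lines mark the 27 carriers, taller and red where the adjusted p was under 0.05. The 4 red lines lie between -1.02 and -0.38, and the carrier farthest to the right, Slc25a25 at 1.41, did not pass.

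Taken array by array, the median deviation of the 27 carriers from their own means ran from -0.19 to -0.017 on the leptin arrays and from 0.010 to 0.20 on the PBS arrays. The lowest array was leptin 4 and the highest PBS 1. The groups lay close to each other at leptin 2 and PBS 2. The values are log2 normalized intensities, whose offset of 16 makes a fold understate the change of a dim probe.

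Of the dicarboxylate carriers, 1 of 2 tested members was called, where 16.7% of all genes were. Slc25a10 exchanges malate or succinate for phosphate, a step by which carbon leaves the mitochondrion for gluconeogenesis. Its normalized intensity had a lowest value of 10.56, a median of 11.08 and a highest of 11.35 on the PBS arrays. On the leptin arrays these were 9.79, 10.12 and 10.30. The lowest PBS array, PBS 4, lay above the highest leptin array, leptin 6. The mean fell from 10.99 ± 0.30 (SD) to 10.09 ± 0.18, a log2 difference of -0.89 ± 0.14 (SE, limma adjusted p = 0.00159) or 1.86-fold. The exact permutation test over the 924 splits of 6 against 6 arrays gave p = 0.00216 (two-sided), the smallest it can give.

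Slc25a11, the oxoglutarate-malate carrier of the malate-aspartate shuttle, did not pass. Its lowest, median and highest values were 10.43, 10.63 and 10.93 with PBS and 10.12, 10.34 and 10.54 with leptin. The ranges overlapped because leptin 1 lay above PBS 2 and PBS 4. The log2 difference was -0.31 (95% interval -0.56 to -0.07, adjusted p = 0.0732), and on the deposited values without background correction the carrier passed (-0.29, adjusted p = 0.0423). Its 2 other kept probes gave -0.29 and -0.0046 with limma adjusted p of 0.307 and 0.988 over probes, so the 3 probes disagreed in size. Slc25a21, the oxoadipate carrier, was not detected on any array.

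Among amino acid carriers 1 of 4 tested members fell and all 4 lay below 0, with a median log2 difference of -0.36. Of all tested genes 8.40% fell and 49.5% lay below 0. Slc25a12, also called aralar, exports aspartate in exchange for glutamate and is the form known mainly from brain and muscle. Its lowest, median and highest values were 7.98, 8.18 and 8.47 with PBS and 7.11, 7.42 and 7.82 with leptin. The highest leptin array, leptin 4, stayed below the lowest PBS array, PBS 3. The mean fell from 8.19 ± 0.16 (SD) to 7.44 ± 0.24, a log2 difference of -0.75 ± 0.13 (SE, limma adjusted p = 0.00222) or 1.68-fold, and the exact permutation p was again 0.00216. A second probe of Slc25a12 was detected on 1 of 12 arrays and was not tested.

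Slc25a38 imports glycine for heme synthesis and had 3 kept probes. The one that represented the gene gave a log2 difference of -0.28 (95% interval -0.59 to 0.031, adjusted p = 0.200). Another probe of it gave -0.50 and was called over the 15062 kept probes (limma adjusted p = 0.0226), and the third gave -0.22 (adjusted p = 0.350). All 3 probes leaned the same way while 1 passed. The probe-level comparison called 5 of 33 kept carrier probes, where 18.1% of all kept probes were called.

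The basic amino acid carrier Slc25a29 was detected on 3 PBS arrays and 1 leptin array and did not pass (-0.44, 95% interval -0.80 to -0.09, adjusted p = 0.0816). It passed without PBS 2 (adjusted p = 0.0466). Slc25a44, which carries branched-chain amino acids, stood at -0.054 (95% interval -0.42 to 0.32, adjusted p = 0.864). The glutamate carriers Slc25a18 and Slc25a22 and the ornithine carrier Slc25a2 were not detected on any array. The Slc25a22 probe ran from 114.5 to 138.3 in deposited signal.

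Of the carriers of adenine nucleotides and phosphate, 1 of 4 tested members fell, where 8.40% of all genes did. Slc25a5 is the adenine nucleotide translocase known to predominate in liver and exchanges matrix ATP for cytosolic ADP. Its lowest, median and highest values were 13.70, 13.93 and 14.15 with PBS and 13.25, 13.55 and 13.71 with leptin. The ranges touched at 1 pair of arrays, as leptin 6 lay just above PBS 2. The mean fell from 13.91 ± 0.18 (SD) to 13.53 ± 0.16, a log2 difference of -0.38 ± 0.12 (SE, limma adjusted p = 0.0382) or 1.30-fold. The call was lost without any 1 of 8 arrays, namely leptin 1, 2, 3 or 5 and PBS 1, 4, 5 or 6 (adjusted p 0.0584 to 0.0812), and by the authors' deposited table (p-values adjusted here, 0.0743). RefSeq lists a pseudogene of Slc25a5, so its probe may share signal with near-identical copies.

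The muscle and heart isoform Slc25a4 was not detected on any array, with deposited signals of 102.0 to 115.6. Slc25a3, which imports phosphate for ATP synthesis, had a lowest value of 11.08, a median of 11.37 and a highest of 11.79 with PBS. With leptin these were 10.86, 11.20 and 11.30. Of the leptin arrays only leptin 2 lay below every PBS array, and the difference was -0.27 (95% interval -0.57 to 0.024, adjusted p = 0.191). Its second kept probe gave 0.055 (adjusted p = 0.803). Thus the 2 probes of Slc25a3 differed in sign, and neither passed.

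Slc25a25, a calcium-regulated exchanger of ATP-Mg for phosphate, had the greatest positive difference among the 27 tested carriers but did not pass. Its values with PBS had a lowest of 8.14, a median of 10.26 and a highest of 10.82, and with leptin 10.06, 11.69 and 12.25. Arrays leptin 2, 4, 5 and 6 lay above every PBS array, while leptin 1 and leptin 3 lay within the PBS range. The means were 9.90 ± 0.97 (SD) and 11.30 ± 0.95, a log2 difference of 1.41 ± 0.48 (SE, 95% interval 0.38 to 2.43, limma adjusted p = 0.0584). The exact permutation p, unadjusted, was 0.0346. The carrier passed without leptin 1 (1.64, adjusted p = 0.0391), without leptin 3 (1.65, 0.0383), without PBS 3 (1.59, 0.0433) and by the p-values of the authors' deposited table, adjusted here (0.0414). Its paralog Slc25a23 stood at -0.086 (95% interval -0.54 to 0.37, adjusted p = 0.818) and turned to 0.092 without PBS 3. The paralog Slc25a24 was detected on at most 1 array per probe, and Slc25a31 and Slc25a41 on none.

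**Figure D3:**
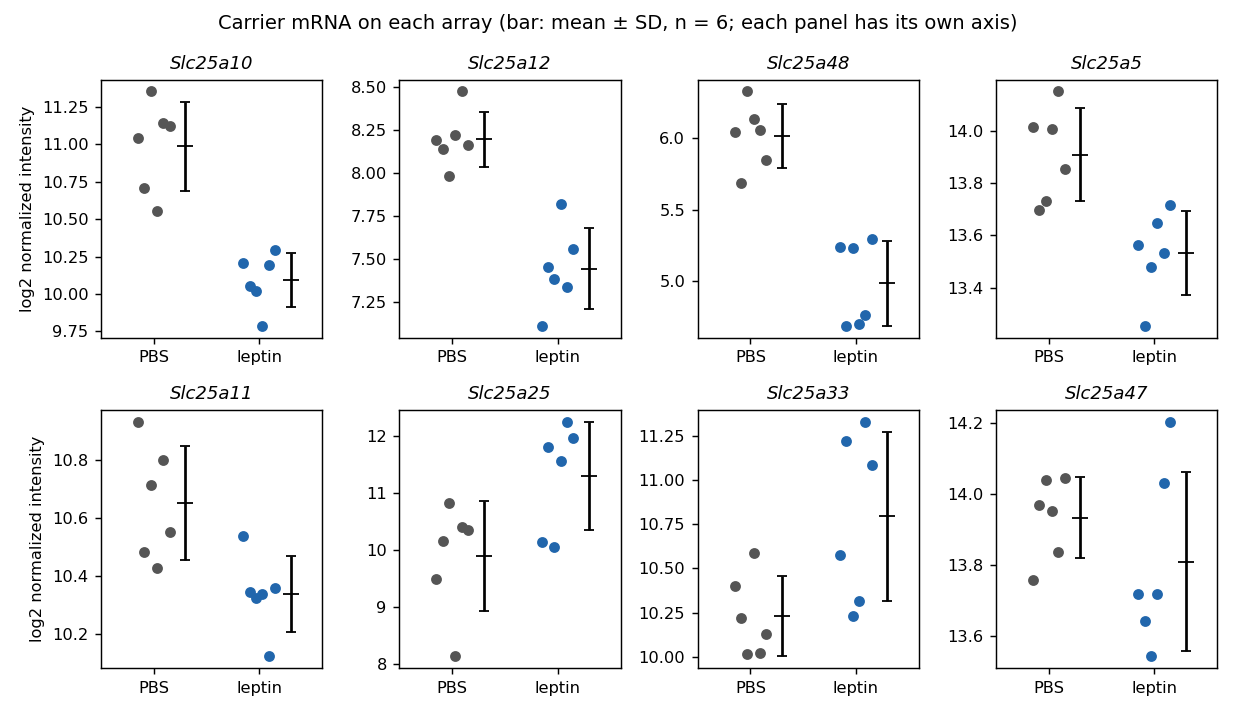
Each panel plots log2 normalized intensity of 1 carrier on the 6 PBS and 6 leptin arrays (points) with mean ± SD beside them, and each panel has its own axis. In Slc25a10, Slc25a12 and Slc25a48 every leptin point lies below every PBS point, while in Slc25a25 leptin 1 and 3 lie among the PBS points.

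Of the uncoupling proteins, Ucp1 and Ucp3 were examined. Ucp1, the proton channel of brown fat, was not detected on any array, with deposited signals of 102.8 to 115.0. Ucp3, the form of skeletal muscle, was not detected with either of its 2 probes, at 102.8 to 121.1. None of the 5 adipocyte markers on the array (Adipoq, Plin1, Cidea, Lep and Retn) and 1 of 6 skeletal muscle markers were detected. Their relatives Slc25a14 (0.058, 95% interval -0.29 to 0.40, adjusted p = 0.839) and Slc25a30 (0.033, 95% interval -0.42 to 0.49, adjusted p = 0.938) did not pass, and the brain form Slc25a27 was not detected.

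None of the 8 tested carriers of cofactors, nucleotides and glutathione passed, where 16.7% of all genes did. Slc25a33 imports pyrimidine nucleotides and had a lowest, median and highest value of 10.01, 10.18 and 10.59 with PBS and 10.23, 10.83 and 11.33 with leptin. Arrays leptin 2, 5 and 6 lay above every PBS array, and leptin 1, 3 and 4 lay within the PBS range. The difference was 0.57 ± 0.20 (SE, limma adjusted p = 0.0674), and it passed without leptin 3 (0.68, 0.0390) or leptin 4 (0.66, 0.0382). The S-adenosylmethionine carrier Slc25a26 gave -0.38 (95% interval -0.66 to -0.10, adjusted p = 0.0595), with overlapping groups. Slc25a36, the other pyrimidine nucleotide carrier, was detected on 2 arrays and was not tested.

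The glutathione carrier Slc25a39 did not pass. Its difference was -0.19 (95% interval -0.38 to 0.0088, adjusted p = 0.175), and its paralog Slc25a40 was not detected. Slc25a16, linked to coenzyme A, stood at -0.23 (adjusted p = 0.263), and the coenzyme A carrier Slc25a42 at -0.22 (adjusted p = 0.359). The peroxisomal cofactor carrier Slc25a17 (-0.059, adjusted p = 0.854) and the folate and flavin carrier Slc25a32 (0.017, adjusted p = 0.970) lay close to 0. The NAD carrier Slc25a51, detected on 4 leptin arrays and 1 PBS array, gave 0.31 (95% interval -0.12 to 0.74, adjusted p = 0.303).

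The iron carriers leaned in opposite directions and neither passed. Mitoferrin 2, Slc25a28, gave -0.35 (95% interval -0.62 to -0.07, adjusted p = 0.0752) and passed only without leptin 6 (adjusted p = 0.0496) among the arrays left out. Mitoferrin 1, Slc25a37, the form of red cell precursors, gave 0.20 (95% interval -0.24 to 0.64, adjusted p = 0.532). Its second kept probe, detected on 1 leptin array and 2 PBS arrays, gave 0.078 (limma adjusted p = 0.841 over probes). The summed linear intensity of the 3 detected erythroid markers ran from 5193 to 36037 with PBS and from 9665 to 34677 with leptin. The leptin range lay within the PBS range, and no erythroid marker was called.

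Of the 5 tested carriers with another or an unsettled substrate, 1 fell, where 8.40% of all genes did. Slc25a48, reported in human cells to carry choline, had a lowest value of 5.69, a median of 6.05 and a highest of 6.32 with PBS and 4.69, 4.9995 and 5.30 with leptin. The highest leptin array, leptin 6, lay below the lowest PBS array, PBS 2. Slc25a48 was detected on 6 of 6 PBS arrays and 2 of 6 leptin arrays, so its leptin mean rests mostly on signal near background. Slc25a48 passed the detection filter through the PBS arrays, where it was higher, which can favour a fall. The mean fell from 6.01 ± 0.22 (SD) to 4.99 ± 0.30, a log2 difference of -1.02 ± 0.15 (SE, limma adjusted p = 0.000994) or 2.03-fold. The exact permutation p was 0.00216. In the authors' deposited table, with no background subtracted, its log2 difference was -0.33.

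Slc25a47, a carrier known for its restriction to the liver, was detected on all 12 arrays and did not pass. Its lowest, median and highest values were 13.76, 13.96 and 14.05 with PBS and 13.54, 13.72 and 14.20 with leptin. Leptin 1, 2, 3 and 4 lay below every PBS array, whereas leptin 6 lay above every PBS array. The difference was -0.12 ± 0.13 (SE, 95% interval -0.39 to 0.14, limma adjusted p = 0.523). Slc25a45 (0.071, adjusted p = 0.710), Slc25a34 (-0.29, 0.234) and Slc25a53 (-0.085, 0.650) did not pass either, and Slc25a34 was detected on 3 PBS arrays and 1 leptin array. Slc25a35, Slc25a43, Slc25a46 and Slc25a54 were not detected on any array.

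**Figure D4:**
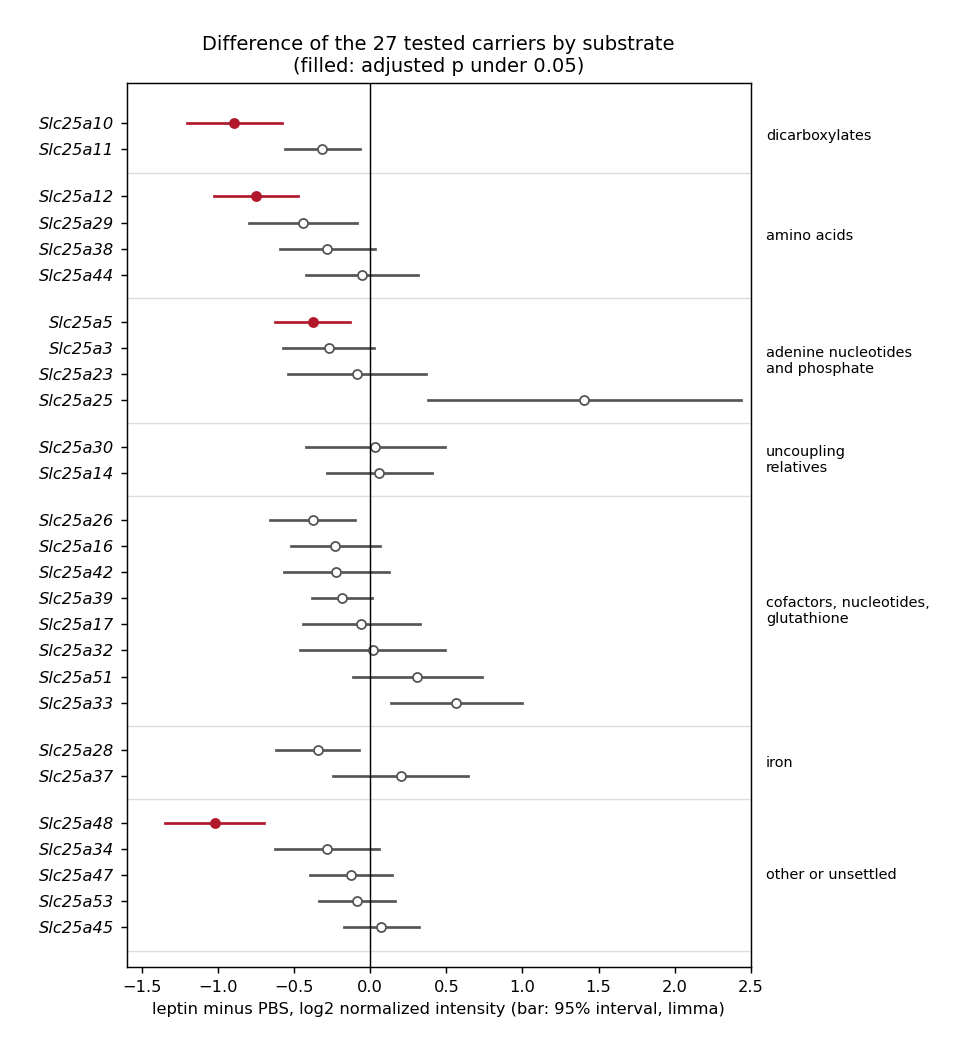
Points give the log2 difference, leptin minus PBS, of the 27 tested carriers with its 95% interval from limma, by substrate group, filled and red where the adjusted p was under 0.05. The dicarboxylate and amino acid carriers all lie below 0, as did 49.5% of all tested genes. Slc25a25 has the widest interval, from 0.38 to 2.43.

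The 4 carriers set aside by the choice of members fell with leptin in 3 cases, where 8.40% of all genes fell. The carnitine-acylcarnitine carrier Slc25a20 fell by 1.16 and the ornithine carrier Slc25a15 by 0.85 on the log2 scale (limma adjusted p = 0.000244 and 0.00236). Slc25a13 and Slc25a1 are named after their values were seen. Slc25a13, known as the main aspartate-glutamate carrier of liver, fell by 0.60 (adjusted p = 0.0321), as did its paralog Slc25a12 above. The citrate carrier Slc25a1 stood at -0.023 (adjusted p = 0.948).

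Other transport proteins of the inner membrane fell in 5 of 9 tested cases and rose in 1, Micu2 (0.52), where 8.40% of all genes fell and 8.31% rose. Sfxn2 fell by 0.80 (limma adjusted p = 0.00170), and Sfxn1, a serine carrier, by 0.60 (0.0148). The outer membrane channels Vdac1, Vdac2 and Vdac3 with Mtch1, Mtch2 and Tspo included no call among 6, beside 16.7% of all genes called, with a median of -0.10. Of 14 tested proteins of mitochondrial import, Tomm34 rose by 0.44 (adjusted p = 0.0215) and none fell, with a median of -0.10. None of the 11 regulators of mitochondrial biogenesis passed, with a median of -0.22. At an unadjusted limma p under 0.05 lay 2 of the 11, where the share over all genes was 32.2%. Ppargc1b, a coactivator, had the greatest difference among these (1.09, adjusted p = 0.0627) and was named after its values were seen. The call shares of these lists, 66.7% of inner membrane transport proteins and 0% of outer membrane channels, are descriptions of small lists.

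A score of 10 clock genes, the mean of their centred log2 values with the sign turned for genes of the opposite phase such as Arntl, also moved with the groups. It ran from -0.78 to 0.44 on the PBS arrays and from -0.43 to 0.76 on the leptin arrays. PBS 3 at 0.44 and leptin 4 at -0.43 lay on the other group's side. With the score as a covariate, Slc25a10 (-1.26, limma adjusted p = 0.00229) and Slc25a48 (-1.37, 0.00229) were called. Slc25a12 (-0.49, adjusted p = 0.0721) and Slc25a5 (-0.28, adjusted p = 0.321) were not, and Slc25a42 was (-0.70, adjusted p = 0.0213). Some score genes themselves differed between the groups, such as Dbp (2.65, limma adjusted p = 0.00566) and Arntl (-1.69, 0.00159), while others such as Per2 (0.29, 0.317) did not pass. Score and group therefore cannot be told apart here. Whether a carrier depends on the clock cannot be read from a call lost or kept under the covariate.

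Slc25a25 stood at 1.11 with the score as a covariate (limma adjusted p = 0.349). Leptin 2 and leptin 6 had high scores of 0.69 and 0.76 and high Slc25a25 levels of 11.81 and 11.98. PBS 3, the PBS array with the high score, had the highest PBS level, 10.82. Leptin 4, with a score of -0.43, had a level of 11.57, and leptin 1, with a score of 0.74, had a level of 10.15. Leptin 5 had the highest level of all arrays, 12.25, at a score of 0.43, and leptin 3 had 10.06 at 0.56. The part of the clock score in the Slc25a25 difference was not tested beyond the covariate, which cannot separate score from group.

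**Figure D5:**
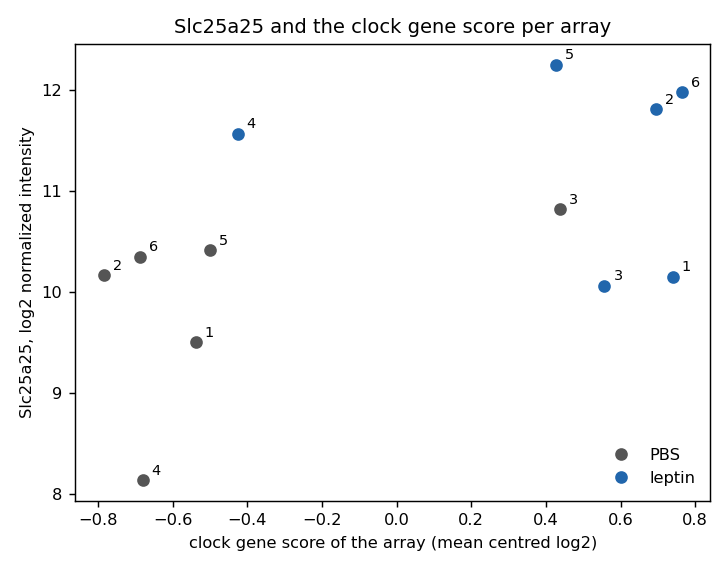
Points give Slc25a25 in log2 normalized intensity against the clock gene score of the same array, numbered by replicate, for PBS (grey) and leptin (blue). Leptin 2 and 6 lie high at high scores and PBS 3 lies highest among PBS arrays at its high score. Leptin 4 lies high at a low score, leptin 1 and 3 lie low at high scores, and leptin 5 lies highest of all.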

How the data were processed

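Liver RNA was extracted with Trizol and RNeasy columns, labelled as biotinylated cRNA and hybridized to BeadChips, per the labels' protocols. The deposited AVG_Signal columns are intensity values per probe and array, with a detection p-value each, per the file headers. Their sorted values were equal between arrays (median difference of 0 percent), so the authors had already equalized them, by software the labels do not name. The series matrix holds log2 of these deposited signals. The authors' Cyber-T table, so named per the file headers, gives an unadjusted p-value and a log2 difference per probe.

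Of 45281 probes, 34885 had 1 symbol in the platform annotation, 18 several and 10378 none here. Symbols are of that annotation. Signals were processed with limma's neqc (offset 16, background from the detection p-values). Probes with detection p below 0.01 on at least 3 arrays were kept (15062), and the brightest kept probe on average stood for its gene. Groups came from the titles and were compared with limma (lmFit, eBayes, two-sided, adjusted p under 0.05), with exact permutation tests for single carriers. The fit was tested on simulated data. All tested carriers are named, and of each related list up to 2 called genes of greatest difference. Replicate numbers 1 to 6 are shared by the groups, but deviations of same-numbered arrays correlated from -0.32 to 0.46, so the numbers were not taken as pairs. No slide or scan label was given, so batches could not be checked. The alternatives changed the input values, offset, detection filter, probe choice, variance trend and array weights. Others used pairing, the Cyber-T p-values, left-out arrays or the clock score. Members and lists were chosen with earlier results of these data known. R 4.3.3, limma 3.58.1 and Python 3.11.15 were used.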

Additional observations from a re-analysis of the deposited data

Results flagged for a closer look

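Among 54 groups of 6 arrays (27 carriers in 2 groups), 4 held an array whose gap to its nearest neighbour exceeded 0.625 of the group's range, and chance gives such a gap in about 1 in 20 groups. Slc25a23 on PBS 3 stood highest at 9.14, against 8.26 for the next array. Slc25a42 on PBS 3 stood highest at 8.50, against 8.09. Slc25a29 on leptin 1 was lowest at 4.69, against 5.09, and was detected on 1 of 6 leptin arrays. Slc25a37 on leptin 4 was lowest at 7.53, against 8.01. PBS 3 and leptin 4 are also the arrays whose clock score lay on the other group's side.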

How the results depend on the processing

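Over 24 alternatives, 3 to 5 carriers were called, against 4. The number of all genes, or of probes tested singly, called in them ran from 994 to 2722. Slc25a10 and Slc25a48 were called in each that tested them, and 17 of 27 carriers in none by adjusted p. Detection on 9 arrays left Slc25a48 untested, with 23 carriers tested and 3 called, beside 1306 of 7731 genes called. With no filter 4 of 44 carriers were called, beside 1218 of 19057 genes. Slc25a48 had entered the test through the PBS arrays, where it was higher, so its calls are less independent than those of Slc25a10. Leaving out single arrays gave 1053 to 1546 called genes, 3 to 5 called carriers and a carrier median of -0.21 to -0.12. All genes called numbered 1474, and 2722 when every probe was tested on its own. The carrier median of -0.19 moved to -0.12 with the deposited values, with detection on 9 arrays, as a mean over probes and by the authors' table, to -0.057 with no filter, where all 44 carriers enter, and to -0.28 with the clock score. The cause was not tested, apart from the undetected carriers added without the filter. Pairing by number gave no lost or gained carrier call under the replicate block (4 called, 1384 genes). Of arrays, 4 of 12 correlated best with their own number.

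The sign turned in 8 carriers, none called in either direction. Without single arrays, Slc25a32 ran from -0.099 to 0.14, Slc25a44 from -0.16 to 0.018, Slc25a30 from -0.090 to 0.18, Slc25a23 from -0.19 to 0.092, Slc25a14 from -0.0080 to 0.17 and Slc25a17 from -0.17 to 0.028. Without PBS 3 and leptin 4, Slc25a23 was 0.19 and Slc25a44 0.064. With array weights Slc25a32 was -0.00052. With the clock score Slc25a17 was 0.12, Slc25a32 -0.49, Slc25a37 -0.032, Slc25a53 0.048 and Slc25a30 -0.024. Signal near background limits Slc25a48, Slc25a29, Slc25a34, Slc25a51, Slc25a53 and Slc25a14.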
